A study of Mus musculus with 20 samples.

Results

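The expression of 10 genes of local steroid metabolism was examined in the mouse uterus on the evening before implantation. They encode enzymes that make, activate, inactivate or store steroid hormones within a tissue, and they were chosen by name: Hsd17b1, Hsd17b2, Hsd17b11, Sult1e1, Sts, Hsd11b1, Hsd11b2, Srd5a1, Akr1c18 and Cyp11a1. Of these, 9 had a row among the 45777 genes of the expression table, and Sts was not analysed here. Above 0 TPM (a relative abundance corrected for transcript length) in all 20 libraries were 6 genes, 2 genes were above 0 in some libraries, and Sult1e1 was listed at 0 in all 20. RNA was taken at 18:00 on day 3.5 post coitum from wild-type B6D2F1 females aged 8 to 12 weeks that had been mated, with 5 mice in each of 4 groups. The control group received no RU486. The IF group (implantation failure model) was given low-dose RU486, an antagonist of the progesterone and glucocorticoid receptors, under the skin on the morning of day 3.5. The PBMC group was given the same RU486 after peripheral blood mononuclear cells of non-pregnant mice had been placed in the uterine cavity on day 1.5, and the PBMC-hCG group was treated in the same way with cells cultured with human chorionic gonadotropin (hCG). RU486 was thus present in 3 of the 4 groups, given on the day of collection, and mice given cells without RU486 were not analysed here. Mice given medium without cells were not analysed here either, so the cells and the intrauterine procedure cannot be told apart.

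Steroid hormones reach the uterus from the ovary and adrenal gland, and enzymes in the tissue then set how much active hormone each cell sees. The 17-beta-hydroxysteroid dehydrogenases interconvert strong and weak estrogens and androgens, a sulfotransferase and a sulfatase store and release estrogen sulfates, and a pair of 11-beta-hydroxysteroid dehydrogenases regenerate or inactivate glucocorticoids. Reductases such as 5-alpha-reductase and 20-alpha-hydroxysteroid dehydrogenase convert progesterone to less active metabolites. In mice, estrogen and progesterone together decide when the uterus will accept a blastocyst.

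Promoter sequences in the RefSeq table for GRCm38.p6 matched 6 of the genes, each with the 250 bases before an annotated start. Shown here are the parts of the windows of Hsd17b11, the gene whose level changed most clearly, and Srd5a1, which was highest in a few libraries, that lie outside annotated untranslated regions and the span of the gene. They are written 5′ to 3′ on the minus strand with CG dinucleotides, the sites of DNA methylation, in capitals.
Hsd17b11 (chr5:104021920-104022046): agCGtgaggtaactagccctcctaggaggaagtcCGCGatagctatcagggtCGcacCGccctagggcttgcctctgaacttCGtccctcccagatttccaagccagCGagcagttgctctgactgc
Srd5a1 (chr13:69611486-69611713): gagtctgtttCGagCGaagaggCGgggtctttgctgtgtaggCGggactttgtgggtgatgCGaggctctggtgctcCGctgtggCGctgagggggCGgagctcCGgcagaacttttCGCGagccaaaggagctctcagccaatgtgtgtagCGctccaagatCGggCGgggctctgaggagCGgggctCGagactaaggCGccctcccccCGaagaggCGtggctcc
In the GENCODE annotation, the last 123 bases of the Hsd17b11 window were in an untranslated region, as were all 250 bases of the Hsd11b1 window, and the last 22 bases of the Srd5a1 window lay in the RefSeq span of the gene. CG dinucleotides and motifs were counted over whole windows, so these parts are included in the counts that follow. The Srd5a1 window held 20 CG dinucleotides, more than 82.1% of the 32851 windows of this length, the Hsd17b11 window held 13 and the Hsd11b1 window held 6, where the median over all windows was 6. In none of the Hsd17b11, Srd5a1 and Hsd11b1 windows was an estrogen response element half-site (GGTCA, or TGACC on the other strand) or a progesterone and glucocorticoid response element half-site (AGAACA, or TGTTCT on the other strand) found, nor were the full palindromes GGTCANNNTGACC and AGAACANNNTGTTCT, which contain those half-sites. Such half-sites were in 35.2% and 16.1% of all windows, and the palindromes in 0.0639% and 0.00913%. The Sult1e1 window held a single estrogen response element half-site and so did a second window of Cyp11a1, and the Akr1c18 window held none. All 250 bases of that Cyp11a1 window lay in an untranslated region and within the RefSeq span of the gene.

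The levels differed widely between the genes. Over the 20 mice, Hsd11b2 had the highest mean at 295 TPM and Hsd17b11 the next at 190 TPM, above the means of 98.7% and 97.8% of the 30695 genes detected in any library. Srd5a1 at 11 TPM and Hsd11b1 at 8.72 TPM followed. Lower still were Cyp11a1 (0.712 TPM), Hsd17b1 (0.473 TPM), Akr1c18 (0.207 TPM) and Hsd17b2 (0.166 TPM). These 4 means lay above those of 34.4% (Hsd17b2) to 45.2% (Cyp11a1) of the detected genes. The ranges of Hsd11b2 (152 to 621 TPM) and Hsd17b11 (95.7 to 283 TPM) overlapped, as did those of Srd5a1 (5.45 to 51.0) and Hsd11b1 (3.38 to 31.4) and those of the 4 lowest genes, with no overlap between these 3 tiers. The abundant pair thus consisted of the enzyme that inactivates glucocorticoids and an alcohol dehydrogenase of the 17-beta family.

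**Figure D1:**
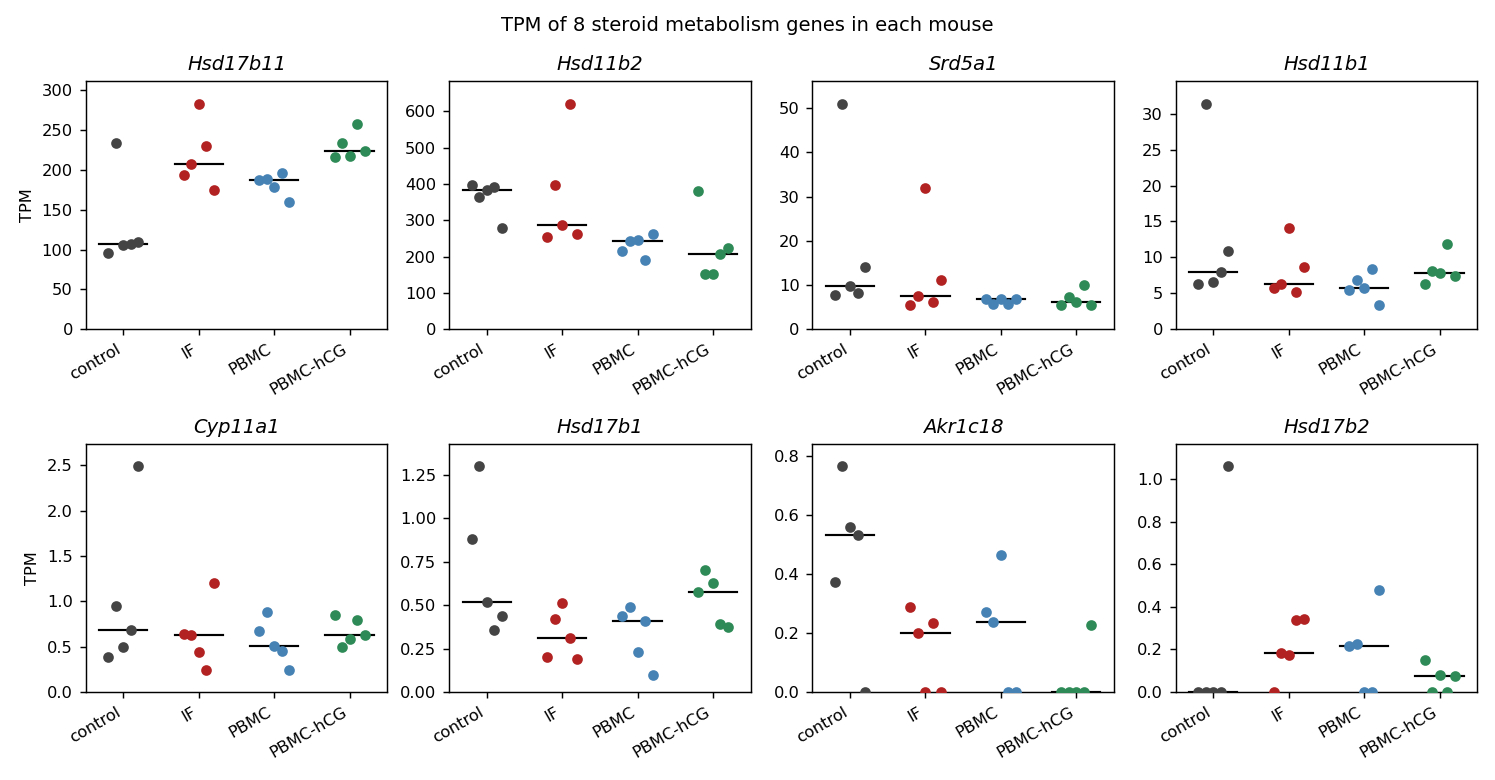
TPM of 8 genes in each of the 20 uteri, with 1 point per mouse, a line at the group median, the 4 groups on the horizontal axis and a linear vertical axis that starts at 0 and differs between panels. Hsd17b11 was at 95.7 to 109 TPM in 4 control mice and at 159 TPM or more in all others, and control replicate 2 was the highest of the 20 for Srd5a1 and Hsd11b1.

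TPM values keep no read depth, so the counting error behind a value is unknown and no detection limit is given. Library totals were 999989 to 999999 TPM, with 22702 to 24097 genes above 0. The mean correlation of a library with the others of its group was 0.963 to 0.989, lowest in control replicate 2. Markers of the uterus summed to 653 to 867 TPM and those of the muscle layer to 4810 to 11100 TPM, so the RNA included myometrium. Of 10 ovary markers, Fshr, Cyp19a1 and Hsd3b1 were at 0 in all 20 libraries, while Foxl2 (18.7 to 81.9 TPM), Inha (3.05 to 15.4), Star (2.35 to 8.57) and Amh (0.0841 to 0.871) were above 0 in all. Lhcgr, Cyp17a1 and Nr5a1 were at 0 in some libraries and reached at most 0.0929, 0.0778 and 0.0609 TPM. In such bulk tissue, fewer cells of a type and less RNA per cell cannot be told apart. Groups were compared with limma on log2(TPM + 0.1), where the added 0.1 draws fold changes of low genes toward 0, and a gene was called at an adjusted p under 0.05 over the 18706 genes above 0 in all libraries.

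Between the IF and control groups, the comparison that shows what RU486 changed, 1 of the 6 testable genes was called, and 21.9% of all tested genes were. The median log2 fold change was -0.46 over the 6 genes and 0.02 over all tested genes. Control replicate 2 weighed on the values of several of the 6. Without this mouse, Srd5a1 went from -0.46 to 0.01, Hsd11b1 from -0.46 to -0.06 and Hsd17b1 from -0.84 to -0.60. The median was not taken again without it. By the criteria of the study (a change of 2-fold or more with a raw p under 0.05), none of the 6 was called and 4.03% of all tested genes were. A raw p under 0.05 was reached by 2 of the 6 and by 6334 of all 18706 tested genes. The gene called was Hsd17b11 (NCBI gene 114664, GRCm38 chromosome 5, 103989765 to 104021796), whose protein sits on lipid droplets and oxidizes androgen metabolites at the 17-beta position.

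Hsd17b11 was higher after RU486. Its levels were 95.7, 234, 106, 107 and 109 TPM in the control mice, and 194, 207, 283, 230 and 175 TPM in the IF mice. It was at 187, 188, 179, 196 and 159 TPM in the PBMC mice and at 216, 234, 217, 257 and 223 TPM in the PBMC-hCG mice. Thus 4 control mice lay below every treated mouse, and control replicate 2 alone overlapped them. The IF group was 1.75-fold above control (log2 fold change 0.81, standard error 0.18, 95% confidence interval 0.43 to 1.18, adjusted p = 0.00328). This call was kept under all 10 other settings and without any 1 mouse, and without control replicate 2 the log2 fold change was 1.04 (adjusted p = 1.33e-06).

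The rise of Hsd17b11 was also present in the groups given cells, compared with the same control mice. PBMC-hCG mice were 1.86-fold above control (log2 fold change 0.90, 95% confidence interval 0.52 to 1.27, adjusted p = 0.00109), and PBMC mice 1.48-fold (0.56, 0.19 to 0.94, adjusted p = 0.0334). The latter call was lost without any 1 of 8 mice and kept without control replicate 2 or PBMC replicate 5, with adjusted p from 2.71e-05 to 0.0907. Against the IF group, the log2 fold change of Hsd17b11 was -0.24 (95% confidence interval -0.62 to 0.13, adjusted p = 0.801) in PBMC mice and 0.09 (-0.29 to 0.47, adjusted p = 0.752) in PBMC-hCG mice. All 5 PBMC-hCG mice lay above all 5 PBMC mice, though how many of all genes separated in this way was not counted. The log2 fold change of 0.33 did not pass (-0.04 to 0.71, adjusted p = 0.342). Between the groups, endothelial markers summed to 247 to 333 TPM in control mice and 374 to 468 TPM in the others, and leukocyte markers to 124 to 133 and 145 to 181 TPM. Stroma markers summed to 5010 to 8940 TPM in control mice and 8870 to 11200 TPM in the others. Control replicate 2, with the most Hsd17b11 of its group, had the lowest endothelial sum at 247 TPM and the lowest stroma sum at 5010 TPM. It also had the highest sums of epithelium markers (1260 TPM) and gland markers (19200 TPM) in its group. In every group, the mouse with the highest gland sum was also the mouse with the most Hsd17b11. The part of these cell types in the rise was not tested.

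Within its own family, Hsd17b11 took a larger share after RU486. It made up a median of 24.9% of the summed TPM of 11 Hsd17b genes in control mice (range 22.3 to 46.7%), 43.3% in IF mice (41.0 to 55.1%), 41.2% in PBMC mice (38.8 to 42.7%) and 46.8% in PBMC-hCG mice (45.9 to 50.9%). The other abundant members were Hsd17b10, a mitochondrial enzyme of fatty acid and steroid oxidation (mean 135 TPM), the peroxisomal Hsd17b4 (76.0 TPM) and Hsd17b12, which elongates fatty acids (56.3 TPM). These shares use the values of the fold changes above and are a description.

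Little or no transcript was found of Hsd17b1, Hsd17b2 and Sult1e1. Hsd17b1 (NCBI gene 15485, chromosome 11, 101077968 to 101081188) reduces estrone to estradiol, and its level was 0.358 to 1.30 TPM in control mice (median 0.517), 0.187 to 0.514 in IF mice (median 0.310), 0.0971 to 0.488 in PBMC mice (median 0.408) and 0.375 to 0.705 in PBMC-hCG mice (median 0.577). The groups overlapped, with 2 control mice above every other mouse. The log2 fold change was -0.84 in IF against control (95% confidence interval -1.53 to -0.14, adjusted p = 0.0785) and -0.87 in PBMC against control (-1.56 to -0.17, adjusted p = 0.076). Without control replicate 4 both comparisons passed, with adjusted p of 0.0487 and 0.0463. Against the IF group it was 0.61 in PBMC-hCG mice (-0.09 to 1.30, adjusted p = 0.199).

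Hsd17b2 (NCBI gene 15486, chromosome 8, 117700982 to 117759030), which oxidizes estradiol back to estrone, was above 0 in 11 of 20 libraries. It was listed at 0 in 4 control mice and at 1.06 TPM in control replicate 5. IF mice had 0, 0.185, 0.174, 0.339 and 0.344 TPM, and PBMC mice had 0.217, 0.224, 0, 0 and 0.477 TPM. PBMC-hCG mice had 0.151, 0, 0.0773, 0 and 0.0758 TPM, so every group held mice at 0 and mice above it. Over its 6 comparisons the two-sided exact permutation p ran from 0.127 (PBMC-hCG against IF) to 1 and none was under 0.05. Sult1e1 (NCBI gene 20860, chromosome 5, 87575968 to 87591611), the estrogen sulfotransferase, was listed at 0 in every mouse, and no ratio of sulfatase to sulfotransferase or of Hsd17b1 to Hsd17b2 could be formed.

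The glucocorticoid pair was unequal. Hsd11b2 (NCBI gene 15484, chromosome 8, 105518746 to 105523988), which inactivates corticosterone, was at 398, 364, 384, 392 and 278 TPM in control mice and at 255, 397, 286, 621 and 262 TPM in IF mice. In PBMC mice it was at 214, 242, 246, 191 and 263 TPM, and in PBMC-hCG mice at 381, 152, 152, 207 and 223 TPM. The IF group straddled the control group, all PBMC mice lay below all control mice, and PBMC-hCG replicate 1 stood above the other 4 of its group. The share of all genes with no overlap between PBMC and control mice was not counted.

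Hsd11b2 was lower in PBMC-hCG mice than in control mice, with a log2 fold change of -0.78 (fold change 0.582, standard error 0.24, 95% confidence interval -1.28 to -0.28, adjusted p = 0.0187). The call was lost without PBMC-hCG replicate 2 or 3 (adjusted p = 0.0558 and 0.0563). In that comparison 2 of the 6 genes were called, Hsd11b2 and Hsd17b11, against 31.8% of all tested genes. In PBMC mice against control, where 1 of the 6 was called (Hsd17b11) and 19.5% of all tested genes were, Hsd11b2 had a log2 fold change of -0.65 that did not pass (-1.15 to -0.15, adjusted p = 0.0649). It passed under 3 of 10 other settings and with no single mouse left out. For RU486 alone, the log2 fold change of Hsd11b2 was -0.07 (-0.57 to 0.43, adjusted p = 0.872).

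Against the IF group, none of the 6 genes was called by limma. These comparisons show what the cells together with the intrauterine procedure added to RU486. In PBMC-hCG against IF, 1 of the 6, Hsd11b2, had a raw p under 0.05, as did 6547 of all 18706 tested genes. At the adjusted threshold, 13.6% of all tested genes were called (2544 genes). This number moved widely with single mice left out, to 34 or fewer without IF replicate 2, 4 or 5 or PBMC-hCG replicate 2, 3, 4 or 5, to 2334 without IF replicate 1, to 4166 without PBMC-hCG replicate 1 and to 5061 without IF replicate 3. The log2 fold change of Hsd11b2 was -0.71 (95% confidence interval -1.21 to -0.21, adjusted p = 0.054), and it was called without IF replicate 1 (adjusted p = 0.0435), IF replicate 3 (0.0354) or PBMC-hCG replicate 1 (0.0117). In PBMC against IF, 0% of all tested genes were called (0 of 18706, with 1271 at a raw p under 0.05), and Hsd11b2 was again the 1 gene of the 6 with a raw p under 0.05 (log2 fold change -0.58, -1.08 to -0.08, adjusted p = 0.701). Between PBMC-hCG and PBMC, 0.0107% of all tested genes were called and 3024 had a raw p under 0.05. None of the 6 did, and Hsd11b2 differed by -0.13 (-0.63 to 0.37). These comparisons share mice and are not independent.

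**Figure D2:**
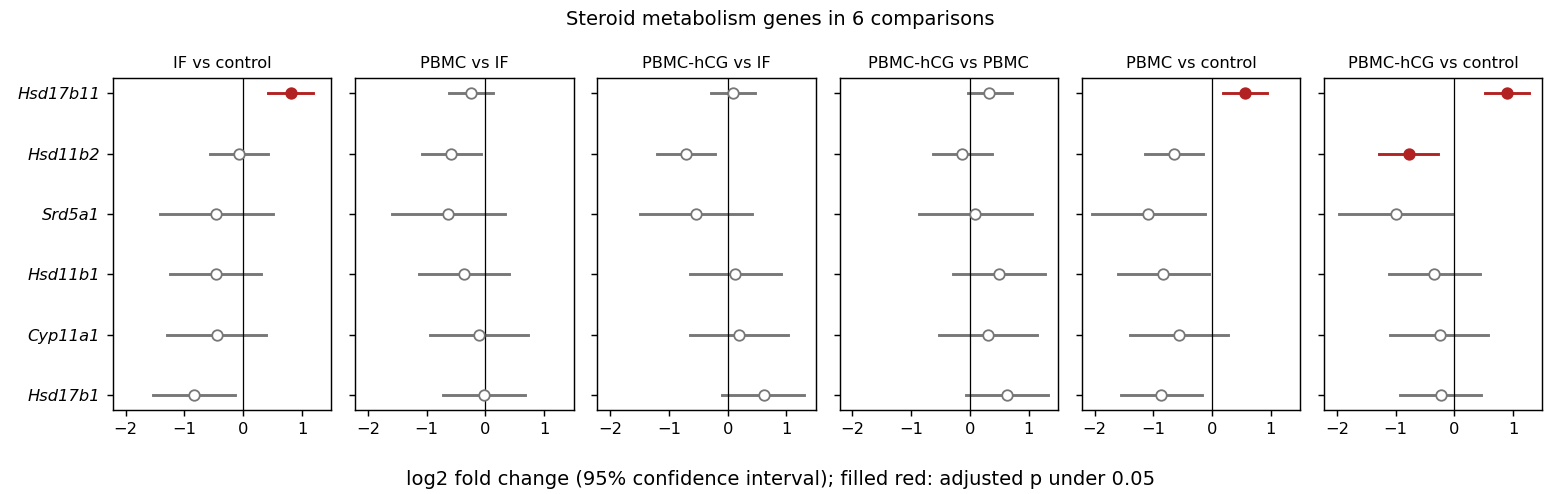
Log2 fold changes with 95% confidence intervals of the 6 genes above 0 TPM in all libraries, in 6 comparisons between groups of 5 mice, 1 panel each, with filled red points for an adjusted p under 0.05. Hsd17b11 was above control in all 3 groups given RU486 (0.81, 0.56 and 0.90), Hsd11b2 was called in PBMC-hCG against control (-0.78), and no point was filled in the comparisons between groups given RU486.

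Hsd11b1 (NCBI gene 15483, chromosome 1, 193221640 to 193264045) regenerates corticosterone from its inactive form and uses NADPH made by H6pd. It was at 6.34, 31.4, 6.60, 7.94 and 10.9 TPM in control mice and at 5.79, 6.24, 14.1, 5.13 and 8.66 TPM in IF mice. PBMC mice had 5.44, 6.88, 5.74, 8.42 and 3.38 TPM, and PBMC-hCG mice 6.30, 8.04, 7.84, 11.8 and 7.46 TPM. Control replicate 2 was far above all other mice, and the groups overlapped throughout. No comparison passed: the log2 fold change was -0.46 in IF against control (95% confidence interval -1.24 to 0.31, adjusted p = 0.414), -0.83 in PBMC against control (-1.61 to -0.06, adjusted p = 0.127) and 0.12 in PBMC-hCG against IF (-0.65 to 0.90, adjusted p = 0.843).

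The ratio of Hsd11b2 to Hsd11b1 TPM within a mouse had a median of 49.5 in control mice (range 11.6 to 62.7), 44.1 in IF mice (20.4 to 121), 39.2 in PBMC mice (22.7 to 77.7) and 19.4 in PBMC-hCG mice (17.5 to 60.6). The inactivating enzyme thus had the higher level in all 20 mice, and the group ranges overlapped. PBMC-hCG replicate 1, at 60.6, was apart from the rest of its group, which lay between 17.5 and 29.8. The ratio was not tested.

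Srd5a1 (NCBI gene 78925, chromosome 13, 69573449 to 69611485) encodes a 5-alpha-reductase that acts on progesterone and testosterone. It was at 7.85, 51.0, 9.83, 8.23 and 14.0 TPM in control mice and at 5.49, 7.59, 32, 6.05 and 11.2 TPM in IF mice. PBMC mice lay close together at 6.76, 5.76, 6.75, 5.63 and 6.78 TPM, and PBMC-hCG mice were at 5.55, 7.37, 6.12, 10.1 and 5.45 TPM. All PBMC mice were below all control mice, a separation that was not counted over all genes. The spread differed greatly, with a coefficient of variation of 102% in control, 89.5% in IF, 9.26% in PBMC and 28.1% in PBMC-hCG mice. Against control, the log2 fold change was -0.46 in IF (95% confidence interval -1.42 to 0.50, adjusted p = 0.522), -1.09 in PBMC (-2.05 to -0.13, adjusted p = 0.106) and -1.0 in PBMC-hCG mice (-1.96 to -0.04, adjusted p = 0.105), and none passed adjustment. By the criteria of the study, Srd5a1 was called in PBMC against control (fold change 0.47 with a raw p under 0.05), where 3.34% of all tested genes were. In that comparison 5 of the 6 testable enzymes and 5920 of all 18706 tested genes had a raw p under 0.05. Of these enzymes, Hsd17b11 was higher and the rest were lower. The median log2 fold change over the 6 was -0.74, against 0.05 over all tested genes. Control replicate 2 was the highest control mouse for Srd5a1, Hsd11b1 and Hsd17b1, so these values are not separate from each other. Without it and IF replicate 3, they went from -1.09, -0.83 and -0.87 to -0.61, -0.43 and -0.63. Hsd11b2 stayed at -0.65. In the GENCODE annotation 16.4% of the exon bases of Srd5a1 are shared with Gm17108, a non-coding gene on the same strand, so its values are uncertain.

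The mice with the most Srd5a1 and Hsd11b1 also had the highest sum of a list of 4 gland markers (Foxa2, Cxcl15, Spink1 and Prss29). This sum was 19200 TPM in control replicate 2, 10500 in IF replicate 3 and 8920 in PBMC-hCG replicate 4, and these mice held ranks 1, 2 and 5 of 20 for Srd5a1 and ranks 1, 2 and 3 for Hsd11b1. The sum was carried by 2 of its 4 genes. Spink1 was at 4270 to 5210 TPM in those 3 mice and 838 to 3110 in the other 17, and Prss29 at 4640 to 14000 against 329 to 3410. Foxa2, the transcription factor that defines uterine glands, was at 5.96 to 9.03 TPM in the 3 mice and 4.84 to 15.4 in the others, and Cxcl15 at 0.394 to 5.08 against 2.35 to 19.9, so neither was higher there. Among the other 17 mice, Srd5a1 did not follow the order of the sum. Control replicates 3, 1 and 4 had the lowest sums (1200, 1380 and 1450 TPM) but ranks 6, 8 and 7 for Srd5a1. For Hsd11b1 they held ranks 12, 13 and 8. Control replicate 2 also had adipose markers at a summed 89.2 TPM, where no other library exceeded 12.4 and IF replicate 3 was at 0. Their part in the levels of Srd5a1 and Hsd11b1 was not tested.

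**Figure D3:**
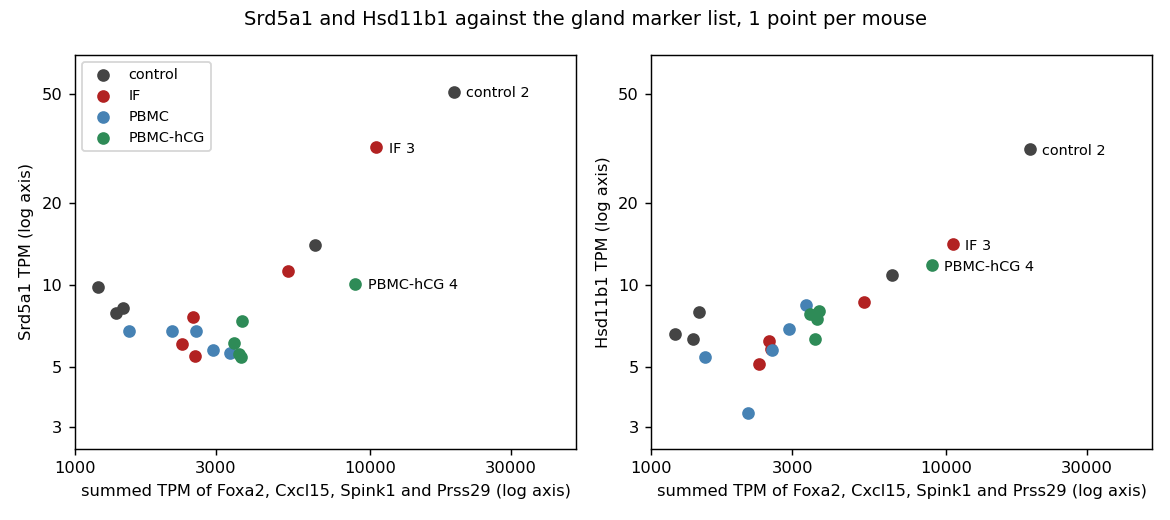
Srd5a1 (left) and Hsd11b1 (right) TPM against the summed TPM of 4 gland markers, both axes logarithmic, with 1 point per mouse coloured by group and the 3 mice with the highest sum named. Control replicate 2 (51.0 and 31.4 TPM) and IF replicate 3 (32 and 14.1 TPM) lie at the upper right of both panels.

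With control replicate 2 and IF replicate 3 left out, a setting chosen after their values were seen, Srd5a1 was lower in PBMC than in control mice (log2 fold change -0.61, adjusted p = 0.0432), and -0.52 in PBMC-hCG against control did not pass (adjusted p = 0.0611). With PBMC-hCG replicate 4 also left out, the latter was -0.67 (adjusted p = 0.0179) and the former kept its size (adjusted p = 0.0275). These libraries were first noticed because Srd5a1 itself was high in them, so the added calls are no support for a change. In the same settings the log2 fold change of Hsd17b11 in IF against control was 0.94.

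Akr1c18 (NCBI gene 105349, chromosome 13, 4132615 to 4150646), the 20-alpha-hydroxysteroid dehydrogenase that inactivates progesterone, is best known from the corpus luteum. It was at 0.371, 0.764, 0.557, 0.530 and 0 TPM in control mice, and at 0.288, 0.201, 0, 0.232 and 0 TPM in IF mice. PBMC mice had 0.271, 0.238, 0.465, 0 and 0 TPM, and in the PBMC-hCG group it was at 0.227 TPM in replicate 5 and listed at 0 in the other 4. The order from control to PBMC-hCG thus rested on values under 1 TPM and on how many mice were at 0. Fitted with the 25384 genes above 0 in at least 5 libraries, Akr1c18 was lower in PBMC-hCG than in control mice (log2 fold change -1.80, 95% confidence interval -3.11 to -0.49, adjusted p = 0.0442), and the two-sided exact permutation test gave p = 0.0476, where 0.00794 is the smallest it allows. The exact p is 1 of 12 and was not adjusted. The call was lost without any 1 of 8 mice and kept without control replicate 5 or PBMC-hCG replicate 5, with adjusted p from 0.00772 to 0.0951. It was also lost without control replicate 2 and IF replicate 3 together (adjusted p = 0.0795) and without these and PBMC-hCG replicate 4 (0.139). Ovary markers summed to 30.4 to 44.8 TPM in control mice and 54.1 to 93.8 TPM in the others, most of it Foxl2 (18.7 to 81.9 TPM). The control group thus had the lowest sums and the highest mean of Akr1c18 (0.444 TPM). The part of these markers in the difference of Akr1c18 was not tested.

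Cyp11a1 (NCBI gene 13070, chromosome 9, 57998024 to 58027031) encodes the enzyme that cleaves the cholesterol side chain at the start of steroid synthesis. It was at 0.381 to 2.49 TPM in control mice (median 0.680), 0.241 to 1.2 in IF mice (median 0.623), 0.238 to 0.879 in PBMC mice (median 0.509) and 0.499 to 0.846 in PBMC-hCG mice (median 0.628). The value of 2.49 TPM belonged to control replicate 5, and the medians lay close together. Its log2 fold change was -0.45 in IF against control (95% confidence interval -1.29 to 0.39, adjusted p = 0.468) and 0.20 in PBMC-hCG against IF (-0.64 to 1.03, adjusted p = 0.757). Of its annotated exon bases, 3.02% are shared with Gm17322 on the same strand.

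Around these genes, 78 further genes of steroid metabolism and transport were listed in 6 groups, of which 77 were in the table and 50 could be tested. Between IF and control, 8 were higher and 12 lower (40%, against 21.9% of all tested genes, with a median log2 fold change of -0.07 against 0.02). Between PBMC-hCG and IF, 10 were higher and 4 lower (28%, against 13.6% of all tested genes, a count that shares the dependence on single mice given above for all genes), and between PBMC and IF none was called. The named genes below are at most 3 per list, by size of change.

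Of 15 tested genes of conjugation and hydroxylation, 6 were lower in IF than in control mice, none was higher and 9 did not pass (40% called, against 21.9% of all tested genes, with a median log2 fold change of -0.16). Sult1d1, a sulfotransferase, went from 132 ± 23.3 TPM in control to 20.2 ± 11.4 TPM in IF mice (SD, n = 5 each), a log2 fold change of -2.85 (adjusted p = 1.01e-06). Cyp1b1, which hydroxylates estradiol, went from 17.1 ± 2.30 to 2.13 ± 1.53 TPM (log2 fold change -3.23, adjusted p = 7.63e-05), and the phenol sulfotransferase Sult1a1 from 69.9 ± 12.3 to 21.8 ± 7.77 TPM (-1.72, adjusted p = 4.49e-06). These 3 calls were kept under all 22 other settings. In PBMC-hCG mice Cyp1b1 was at 7.85 ± 1.66 TPM and Sult1a1 at 31.8 ± 6.01 TPM, both above the IF group (log2 fold changes 2.10 and 0.58), and Sult1d1 was at 22.7 ± 7.59 TPM. Of the calls against IF, that of Cyp1b1 was kept under 15 of 22 other settings (highest adjusted p = 0.0931, without IF replicate 5) and that of Sult1a1 under 8 of 22 (highest 0.139, without IF replicate 5).

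Among the other reductases, 2 of 9 were higher, 1 was lower and 6 did not pass in IF against control (33.3% called, against 21.9% of all tested genes). Akr1c14, a 3-alpha-hydroxysteroid dehydrogenase that acts after 5-alpha-reductase, rose from 27.1 ± 7.04 to 135 ± 34.6 TPM (log2 fold change 2.30, adjusted p = 2.28e-07) and was at 87.5 ± 16.3 TPM in PBMC and 99.2 ± 22.1 TPM in PBMC-hCG mice. Akr1cl rose from 0.741 ± 0.262 to 5.73 ± 2.71 TPM (2.72, adjusted p = 0.000106) and was at 1.86 ± 1.34 TPM in PBMC-hCG mice, below the IF group (-1.70), a call kept under 15 of 22 other settings (highest adjusted p = 0.0962, without IF replicate 5). Akr1c19 fell from 15.7 ± 3.81 to 5.87 ± 2.36 TPM (-1.49, adjusted p = 0.00161). The Akr1c genes are a family of closely related copies, and how reads were shared among them is not given in the sources used here, so the values of Akr1c18, Akr1c14 and Akr1c19 are uncertain.

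In the list of other 17-beta-hydroxysteroid dehydrogenases, 2 of 4 were lower in IF mice, none was higher and 2 did not pass (50% called, against 21.9% of all tested genes). Hsd17b10 went from 159 ± 8.60 to 122 ± 7.28 TPM (log2 fold change -0.38, adjusted p = 0.000187) and Hsd17b4 from 84.3 ± 9.88 to 71.2 ± 7.76 TPM (-0.24, adjusted p = 0.0351). The call of Hsd17b4 was kept under 15 of 22 other settings (highest adjusted p = 0.134, with the 2 groups fitted alone). Hsd17b7, also an enzyme of cholesterol synthesis, was at 1.15 ± 0.234 TPM in PBMC-hCG and 2.48 ± 0.872 TPM in IF mice (-1.02, adjusted p = 0.0343, kept under 15 of 22 other settings).

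Of 10 transport genes, 4 were higher, 1 was lower and 5 did not pass in IF mice (50% called, against 21.9% of all tested genes). The organic anion carriers Slco4a1 (4.48 ± 2.88 to 11.1 ± 2.17 TPM, log2 fold change 1.44) and Slco2b1 (22.5 ± 4.06 to 37.4 ± 9.93 TPM, 0.72) rose, and Slc10a6, which takes up steroid sulfates, fell (14.4 ± 3.8 to 6.54 ± 0.907 TPM, -1.11). Of 5 cofactor genes, 1 was higher and 1 lower (40% called, against 21.9%). H6pd rose from 82.9 ± 21.3 to 111 ± 16 TPM (0.44, adjusted p = 0.0234), a call kept under 16 of 22 other settings (highest adjusted p = 0.111, with the 2 groups fitted alone). Cyb5a, an electron carrier for steroid lyase activity, fell (274 ± 14.4 to 209 ± 15.1 TPM, -0.39). Cyb5r3, which reduces cytochrome b5, was higher in PBMC-hCG than in IF mice (352 ± 33.0 and 287 ± 28.6 TPM, 0.30, adjusted p = 0.0493, kept under 11 of 22 other settings). Of 7 tested genes of steroid synthesis, 1 was higher and 1 lower (28.6% called, against 21.9%). Stard3 rose (26.0 ± 1.45 to 32.6 ± 1.88 TPM, 0.33) and Fdxr, the mitochondrial reductase that supplies Cyp11a1 with electrons, fell (16 ± 1.93 to 12.1 ± 1.79 TPM, -0.41, adjusted p = 0.0385). The call of Fdxr was kept under 15 of 22 other settings (highest adjusted p = 0.111, without IF replicate 5).

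**Figure D4:**
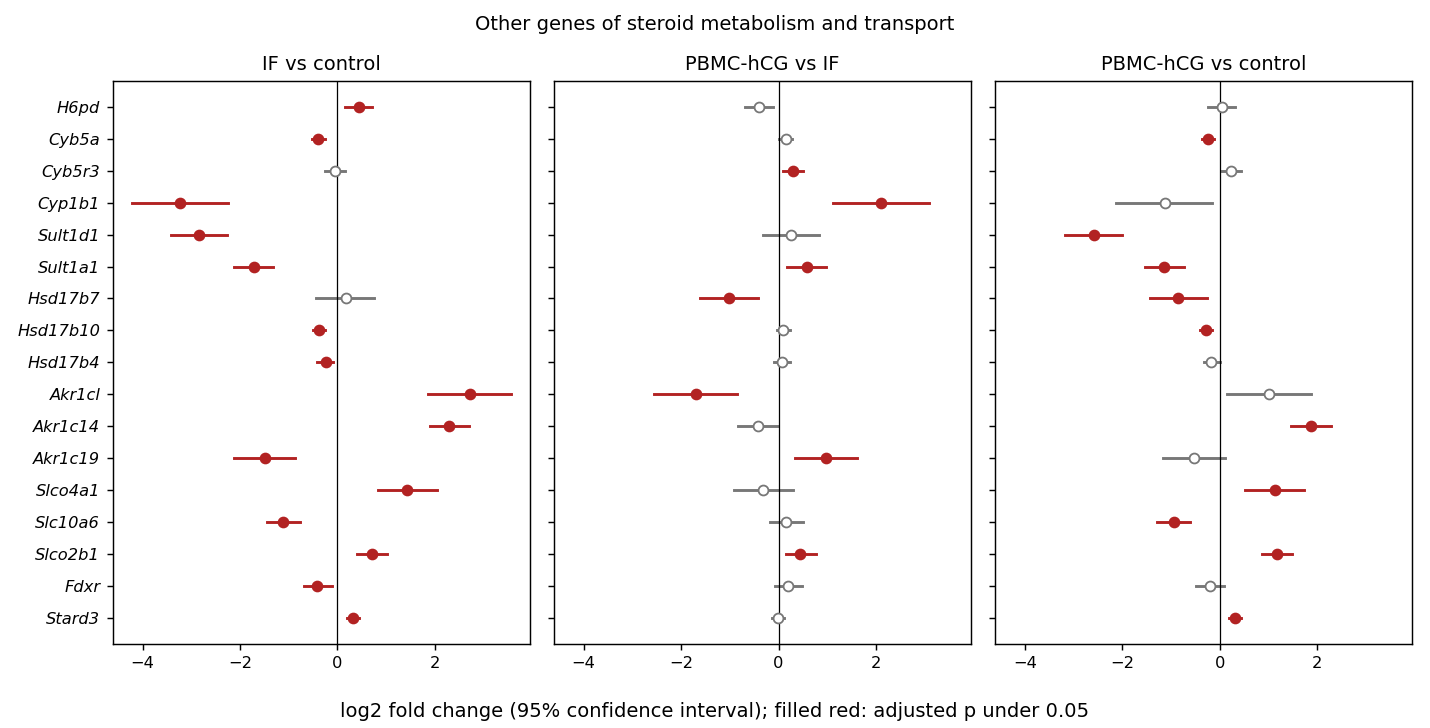
Log2 fold changes with 95% confidence intervals of 17 other genes of steroid metabolism and transport in 3 comparisons, with filled red points for an adjusted p under 0.05. Cyp1b1, Sult1d1 and Sult1a1 lie to the left in IF against control (-3.23, -2.85 and -1.72) and Akr1cl and Akr1c14 to the right (2.72 and 2.30).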

How the data were processed

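RNA-seq was analysed in uteri of 20 mice, and groups and replicate numbers were taken from the sample labels. Expression was deposited by the authors in TPM. According to the study's methods and the submitters' processing notes, reads of stranded mRNA libraries were trimmed with Trimmomatic, mapped to mm10 with HISAT2 and assembled with StringTie. TPM keeps no depth, and the authors' count test could not be used. Values were compared as log2(TPM + 0.1) with limma 3.58.1 in R 4.3.3 (variance trend, all 4 groups in 1 fit), with Benjamini-Hochberg adjustment over 18706 genes within each comparison. The 2 genes at 0 in some libraries were fitted with 25384 genes and tested by two-sided exact permutation over 252 arrangements. The fit was tested on simulated data. Alternatives were other pseudocounts, filters, scalings and fits, and each mouse left out in turn. Of the other pathway lists, at most 3 genes each were named, by the largest change among calls in IF against control or PBMC-hCG against IF at a mean of at least 1 TPM. The genes and lists were chosen with earlier results of these data known. Untranslated regions and exon overlaps were read from the GENCODE annotation of GRCm38. CG dinucleotides were counted after the sequences were seen. Nothing in the labels gives a batch or date.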

Additional observations from a re-analysis of the deposited data

Results flagged for a closer look

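In groups of 5 mice, a mouse far from the other 4 was found in 13 of the 100 gene and group combinations examined. About 5 would be found by chance for independent, normally distributed values, which TPM values that share mice need not be. Of the 13, 8 were among the 32 combinations of the enzymes. Where the other 4 mice were at 0, a mouse above 0 was bound to be flagged. Control replicate 2 was the highest of its group for Hsd17b11 (234 TPM, others 95.7 to 109), Hsd11b1 (31.4 TPM, others 6.34 to 10.9), Srd5a1 (51.0 TPM, others 7.85 to 14.0) and Sult1d1 (173 TPM, others 115 to 131). Control replicate 5 was the highest for Hsd17b2 (1.06 TPM, others at 0) and Cyp11a1 (2.49 TPM, others 0.381 to 0.951) and the lowest for Hsd11b2 (278 TPM, others 364 to 398). IF replicate 3 was the highest for Srd5a1 (32 TPM, others 5.49 to 11.2), Sult1a1 (35.2 TPM, others 16.3 to 21.5) and Slco2b1 (55.0 TPM, others 30.9 to 34.3). IF replicate 5 was the lowest for Cyb5r3 (237 TPM, others 288 to 304) and the highest for Hsd17b7 (3.99 TPM, others 1.87 to 2.41). PBMC-hCG replicate 5 had Akr1c18 at 0.227 TPM, with the others at 0.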

How the results depend on the processing

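No log2 fold change that was called reversed its sign under any setting. Of the 6 tested enzymes, the number called moved as follows. In PBMC-hCG against IF it went from 0 to 1 with median-ratio scaling, with library weights and without control replicate 2 and IF replicate 3. In PBMC-hCG against PBMC it went from 0 to 1 with library weights. In PBMC against control it went from 1 to 2 with library weights, and also with both settings chosen after seeing the data, which left out control replicate 2 and IF replicate 3, or these and PBMC-hCG replicate 4. In PBMC-hCG against control it went from 2 to 3 in the last of these settings, where Srd5a1 was added (adjusted p = 0.0179). With each mouse left out in turn, it was 1 to 2 in IF against control, 0 to 1 in PBMC-hCG against IF, 0 to 1 in PBMC against control and 1 to 2 in PBMC-hCG against control. The cause was not tested. Over all tested genes, library weights raised the calls from 4104 to 6248 in IF against control, from 0 to 34 in PBMC against IF, from 2544 to 8078 in PBMC-hCG against IF, from 2 to 1461 in PBMC-hCG against PBMC, from 3653 to 6814 in PBMC against control and from 5941 to 9554 in PBMC-hCG against control. With the 2 groups fitted alone 2473 genes were called in IF against control, and with genes above 0 in at least 5 libraries 1536 in PBMC-hCG against IF. In PBMC against control the call of Hsd17b11 was lost with quantile normalization (adjusted p = 0.0674), median-ratio scaling (0.0581) and the 2 groups fitted alone (0.107). In each of these settings 1 other enzyme was called instead, and it was lower than in control mice. Over the other settings of this comparison, Hsd11b2 passed in 3 of 10 and Hsd17b1 in 2 of 9. The call of Akr1c18 in PBMC-hCG against control was lost with a pseudocount of 0.01 (adjusted p = 0.082), without the variance trend (0.0502) and with the 2 groups fitted alone (0.0549), and in both settings chosen after seeing the data (0.0795 and 0.139). Same-numbered mice of different groups deviated together with a correlation over 0.1 in 8 of 30 pairs (range -0.25 to 0.46). Differently numbered pairs were not set beside them, so these values do not show whether same-numbered mice share more than a number. With the replicate number as a block, 2 enzymes were called in IF against control and 2 in PBMC against control, Hsd17b1 being the gene added, and Akr1c18 was lost (adjusted p = 0.0527). Depth is unknown, which limits the genes under 1 TPM most.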
